A study of Homo sapiens with 9 samples.

Results

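The 10 genes described here encode the Aurora kinases AURKA and AURKB, the Polo-like kinases PLK1 and PLK4, the Aurora A cofactors TPX2 and BORA, the chromosomal passenger subunits INCENP, BIRC5 and CDCA8, and the centrosomal kinase NEK2. They were chosen by gene symbol, and all 10 were found among the 44608 entries of every count table and among the 14815 genes tested. The series measured polyadenylated RNA by sequencing in U2OS cells, an established human osteosarcoma line, 48 h after transfection of siRNA at 75 nM. The siNFKB2 libraries (n = 3) came from cells given an siRNA against NFKB2, the siRELB libraries (n = 3) from cells given an siRNA against RELB, and the siNS libraries (n = 3) from cells given a non-silencing siRNA. All cells had the transfection reagent, no untransfected group was analysed here, and every group comes from the same cell line. The number of siRNA sequences used per target is not given in the sources used here, and the labels number the replicates without saying that they came from separate cultures.

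Aurora and Polo-like kinases drive entry into mitosis and the building of the spindle. Aurora A acts at centrosomes and on spindle microtubules, where TPX2 activates it, and together with BORA it switches on PLK1 before mitosis. Aurora B works in the chromosomal passenger complex, in which INCENP is the scaffold and BIRC5 (survivin) and CDCA8 (borealin) bring the kinase to centromeres and later to the spindle midzone. PLK4 starts the duplication of centrioles, and NEK2 loosens the linker between centrosomes. Their transcripts are known to be low in G1 and to peak late in the cell cycle, under control of CCAAT boxes, bound by NF-Y, and of the cell cycle genes homology region (CHR), bound by complexes with MYBL2 or FOXM1 or by repressors.

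Promoter windows of 250 bases before the RefSeq transcript start were available for 7 of the 10 genes. Those of AURKA, BIRC5 and TPX2 are not shown. The CHR was searched as TTTGAA and as TTCGAA, and the CCAAT box as CCAAT, each on both strands. The windows of CDCA8, INCENP, BORA and PLK1 held TTTGAA, and that of BORA also held TTCGAA. The 7 genes have 10 windows, because PLK4 has 3 and AURKB has a pair that overlap. A form of the CHR was in 4 of the 10 windows and in 14.3% of 35116 RefSeq windows of this length. CCAAT was in 8 of the 10 windows, all but 2 windows of PLK4, and in 32.0% of all windows. No window of the 7 genes held a match to the NF-kB consensus (kappa B site), which is present in 5.21% of all windows. The windows of AURKB, PLK4 and NEK2 had neither form of the CHR letters, which says only that they are not in these windows. A match of letters is a description and not evidence of binding. Of these genes PLK1, CDCA8, INCENP and BORA fell in siNFKB2, and so did AURKB, whereas PLK4 and NEK2 were not called there. AURKA, BIRC5 and TPX2, which have no window here, fell too. No share of called genes among all windows with these letters was taken, and whether the letters go with a fall was not tested. The 4 windows with the CHR letters are printed, and beside them those of AURKB, called lower, and NEK2, not called, as windows without these letters. Sequences are from RefSeq on GRCh38.p14, written 5′ to 3′ on the strand of the gene and ending at the base before the RefSeq start, which can lie inside the GENCODE span given below. Capitals mark the CHR letters and the CCAAT box, which reads ATTGG where it lies on the other strand, and in CDCA8 the CHR and 1 CCAAT match share a base.
PLK1 (chr16:23678639-23678888, plus strand): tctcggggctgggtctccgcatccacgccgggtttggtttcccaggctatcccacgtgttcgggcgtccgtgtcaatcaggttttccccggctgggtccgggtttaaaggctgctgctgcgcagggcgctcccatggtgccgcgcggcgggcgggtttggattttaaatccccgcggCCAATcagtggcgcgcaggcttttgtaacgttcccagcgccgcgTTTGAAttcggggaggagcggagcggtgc
CDCA8 (chr1:37692266-37692515, plus strand): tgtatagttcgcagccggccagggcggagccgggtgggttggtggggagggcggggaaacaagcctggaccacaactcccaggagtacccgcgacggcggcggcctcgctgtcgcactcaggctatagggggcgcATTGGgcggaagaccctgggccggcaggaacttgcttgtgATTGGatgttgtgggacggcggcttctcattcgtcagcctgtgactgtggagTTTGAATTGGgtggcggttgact
INCENP (chr11:62123761-62124010, plus strand): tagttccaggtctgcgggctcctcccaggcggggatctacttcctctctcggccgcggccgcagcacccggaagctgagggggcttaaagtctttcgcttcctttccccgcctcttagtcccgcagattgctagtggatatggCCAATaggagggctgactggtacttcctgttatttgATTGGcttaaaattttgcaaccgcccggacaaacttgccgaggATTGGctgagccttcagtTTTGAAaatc
BORA (chr13:72727673-72727922, plus strand): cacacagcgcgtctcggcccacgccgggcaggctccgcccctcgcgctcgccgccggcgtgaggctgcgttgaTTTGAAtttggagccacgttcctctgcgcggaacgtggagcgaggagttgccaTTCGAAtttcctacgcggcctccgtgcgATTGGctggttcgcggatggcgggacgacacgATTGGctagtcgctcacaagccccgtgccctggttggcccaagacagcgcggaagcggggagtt
AURKB (chr17:8210226-8210475, minus strand): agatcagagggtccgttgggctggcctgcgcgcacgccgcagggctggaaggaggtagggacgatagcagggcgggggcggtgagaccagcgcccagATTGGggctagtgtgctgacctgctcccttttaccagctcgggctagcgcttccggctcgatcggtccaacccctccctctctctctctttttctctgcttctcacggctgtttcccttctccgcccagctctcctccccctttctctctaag
NEK2 (chr1:211675622-211675871, minus strand): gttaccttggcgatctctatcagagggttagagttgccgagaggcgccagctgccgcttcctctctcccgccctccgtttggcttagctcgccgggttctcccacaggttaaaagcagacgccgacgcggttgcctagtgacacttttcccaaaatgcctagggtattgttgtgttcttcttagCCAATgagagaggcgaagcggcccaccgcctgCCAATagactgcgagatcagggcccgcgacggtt

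Total counts ranged from 15011789 to 19279572 per library. In the siNFKB2 libraries NFKB2 was left at 4.86%, 21.1% and 44.8% of its siNS mean (replicates 1, 2 and 3). In the siRELB libraries RELB was left at 9.79%, 17.1% and 19.7% of its siNS mean. The other subunit was not depleted alike, with RELB at 77.6%, 154% and 158% in siNFKB2 and NFKB2 at 109%, 156% and 155% in siRELB. The siNS libraries themselves ran from 63% to 125% for RELB and from 74.6% to 117% for NFKB2. The mesenchymal and bone lineage markers VIM, COL1A1, COL1A2, SPARC and RUNX2 summed to 4170 to 4470 CPM in siNFKB2, 4220 to 5220 CPM in siRELB and 4510 to 5910 CPM in siNS, although COL1A2 was at or under 1.15 CPM in every library. Of these 5 markers COL1A1, COL1A2 and RUNX2 were called lower in siNFKB2 than in siNS and none was called in siRELB. The 5 epithelial markers summed to 9.34 to 12.4, 12.8 to 15.3 and 10.0 to 16.5 CPM in the same order, with KRT20 at 0 counts throughout. Of them CDH1 was called higher in siNFKB2 (log2 0.82, adjusted p = 0.0301) and in siRELB (log2 1.18, adjusted p = 0.0352) than in siNS, and CLDN4 lower in siNFKB2 (log2 -0.81, adjusted p = 0.03). Of the blood markers, HBB was at 2.03 to 4.35 CPM in siNFKB2, 4.54 to 6.92 CPM in siRELB and 4.81 to 6.52 CPM in siNS, PTPRC was at or under 0.473 CPM in every library and CD3E was at 0 counts throughout. HBB was called lower in siNFKB2 than in siNS (log2 -0.95, adjusted p = 0.0331) and not in siRELB (log2 -0.05, adjusted p = 0.949). The part of these markers in the results below was not tested. Mitochondrial rRNA took 0.519% to 2.68% of counts in siNFKB2, 0.379% to 0.856% in siRELB and 0.406% to 1.33% in siNS.

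All 10 are protein-coding genes, placed here by GENCODE 29 on GRCh38. The Aurora A group has AURKA at chr20:56369389-56392337, TPX2 at chr20:31739271-31801805 and BORA at chr13:72727749-72756198. The passenger genes are AURKB at chr17:8204733-8210600, INCENP at chr11:62123973-62153163, BIRC5 at chr17:78214186-78225636 and CDCA8 at chr1:37692418-37709719. The other kinases are PLK1 at chr16:23677656-23690367, PLK4 at chr4:127880861-127899195 and NEK2 at chr1:211658657-211675630. Per kilobase of exon, TPX2 was the most abundant of the 10 transcripts and BORA the least. Over the union of GENCODE 29 exons, the mean levels in siNS were 137 CPM per kb for TPX2, 76.2 for AURKA, 58.7 for BIRC5 and 54.3 for CDCA8. AURKB followed at 34.4, PLK1 at 32.6, INCENP at 28.4, NEK2 at 16.7, PLK4 at 12.2 and BORA at 5.83 CPM per kb. The order of AURKB, PLK1 and INCENP cannot be read from these data, because AURKB alone spanned 58.1 to 98.5 CPM over the siNS libraries. Counts were deep for most of the genes, and the smallest was 135 reads for BORA in siNFKB2 replicate 3. All levels below are counts scaled to TMM-adjusted library size (CPM), and compare 1 gene between libraries.

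**Figure D1:**
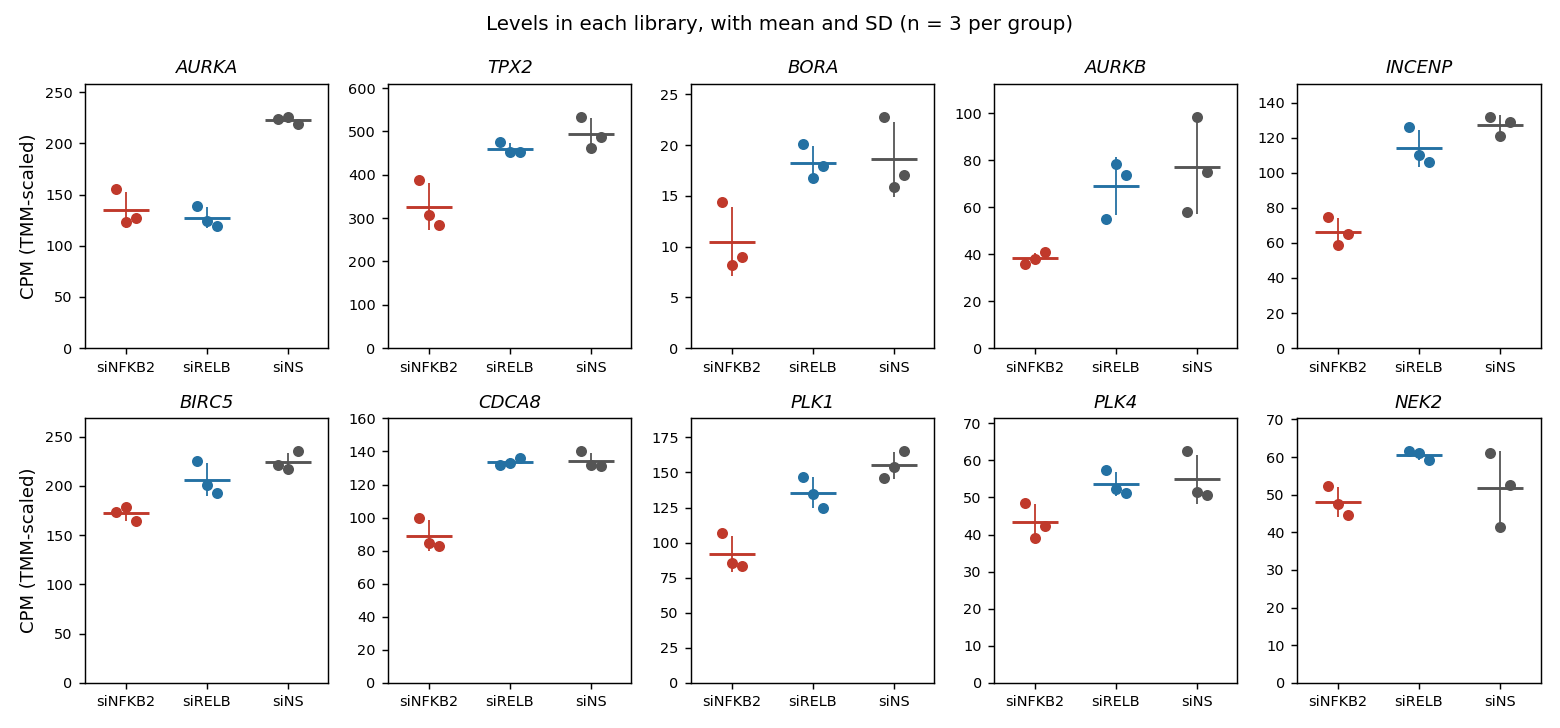
Level of each of the 10 genes (vertical axis, CPM on TMM-scaled library sizes, from 0) in each library, by group. Points are libraries, horizontal lines are means and vertical lines are ± SD (n = 3). AURKA is low in both siNFKB2 and siRELB, whereas INCENP, CDCA8, TPX2 and PLK1 are low in siNFKB2 and nearer to siNS in siRELB.

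The siNFKB2 libraries set against siNS show how these transcripts stood after NFKB2 depletion. Of the 10 genes, 8 fell and none rose, with AURKB, INCENP and BORA at 49.5% to 56.5% of their siNS level and PLK4 and NEK2 not called. Among all 14815 genes 26.1% were called in this comparison, 13.5% lower and 12.6% higher. The median log2 fold change of the 10 genes was -0.66, and that of all genes tested was 0. A gene is called at an adjusted p below 0.05 by the quasi-likelihood test of edgeR, Benjamini-Hochberg adjusted across the 14815 genes, and every adjusted p below is from that test unless another is named. Cells with less RNA of a gene and fewer cells in the phase that makes it cannot be told apart in bulk RNA.

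AURKA had 155, 123 and 127 CPM in siNFKB2, against 224, 226 and 219 CPM in siNS. The siNFKB2 libraries lay well below the siNS libraries, which differed little among themselves. The mean was 135 ± 17.2 CPM in siNFKB2 and 223 ± 3.8 CPM in siNS (SD, n = 3 each), and AURKA fell by 0.72 on the log2 scale (SE 0.12, adjusted p = 0.00196). TPX2, which targets Aurora A to spindle microtubules and keeps it active, had 387, 308 and 284 CPM in siNFKB2, against 534, 461 and 487 CPM in siNS. Its groups did not overlap either, although siNFKB2 replicate 1 stood above the other siNFKB2 libraries (log2 -0.60, SE 0.13, adjusted p = 0.00688). BORA had 14.4, 8.18 and 8.93 CPM in siNFKB2, against 22.8, 15.9 and 17.1 CPM in siNS. Here siNFKB2 replicate 1 came within 2 CPM of the lowest siNS library (log2 -0.82, SE 0.23, adjusted p = 0.0231). BORA shares 37.0% of its exonic length with DIS3 on the opposite strand, and whether counting used the strand is not given in the sources used here, so BORA counts are uncertain. DIS3, named after its values were seen, averaged 99.3 ± 8.61 CPM in siNFKB2 and 79.0 ± 16.6 CPM in siNS (adjusted p = 0.135). The BORA call was lost without siNFKB2 replicate 2 (adjusted p = 0.107), siNFKB2 replicate 3 (0.0896) or siNS replicate 3 (0.054), and with the 6 libraries compared alone (0.057).

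The kinase and the scaffold of the chromosomal passenger complex changed most. AURKB had 36.0, 37.8 and 40.7 CPM in siNFKB2, against 58.1, 98.5 and 74.9 CPM in siNS. The siNFKB2 values were tightly grouped below a wide siNS range, and the log2 fold change was -1.02 (SE 0.20, adjusted p = 0.00466). INCENP had 75.0, 58.9 and 65.1 CPM in siNFKB2, against 132, 121 and 129 CPM in siNS. Its fall had the smallest adjusted p of the 10 genes, and it fell by 0.94 on the log2 scale (SE 0.12, adjusted p = 0.000676). CDCA8, which joins BIRC5 to INCENP in the complex, had 99.7, 84.5 and 82.7 CPM in siNFKB2, against 140, 132 and 131 CPM in siNS. Its groups did not overlap, and it fell by 0.60 on the log2 scale (SE 0.11, adjusted p = 0.00304). BIRC5, which binds a phosphorylated histone H3 at centromeres and is also known as an inhibitor of apoptosis, had 173, 179 and 164 CPM in siNFKB2, against 221, 217 and 235 CPM in siNS. It stayed at 76.7% of the siNS level, the least change among the called members of the complex (log2 -0.38, SE 0.10, adjusted p = 0.0196). The BIRC5 call was lost without siNFKB2 replicate 2 (adjusted p = 0.057), siNFKB2 replicate 3 (0.0788) or siNS replicate 3 (0.0944), and with the 6 libraries compared alone (0.0528).

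Of the Polo-like and centrosomal kinases, PLK1 alone was called. PLK1, which drives centrosome maturation and mitotic entry, had 107, 85.7 and 83.6 CPM in siNFKB2, against 146, 154 and 165 CPM in siNS. All siNFKB2 libraries were below all siNS libraries, and the log2 fold change was -0.75 (SE 0.13, adjusted p = 0.00222). PLK1 shares 11.6% of its exonic length with the antisense gene AC008870.3 and 0.882% with ERN2, both on the opposite strand. Whether counting used the strand is not given, so reads from these stretches are uncertain, as for BORA. PLK4 had 48.5, 39.0 and 42.4 CPM in siNFKB2, against 62.4, 51.5 and 50.7 CPM in siNS. Its groups did not overlap, but the difference missed the threshold (log2 -0.34, SE 0.13, adjusted p = 0.0829). With the replicate number as a block the adjusted p of PLK4 was 0.0169, without siNFKB2 replicate 1 it was 0.0435, and without the 3 libraries numbered 1 it was 0.0192. Over the whole table these fits called 5944, 4265 and 6711 genes, against 3869 with all 9 libraries and no block. NEK2 had 52.3, 47.4 and 44.5 CPM in siNFKB2, against 61.2, 41.3 and 52.5 CPM in siNS. Its siNFKB2 values lay inside the siNS range (log2 -0.10, SE 0.15, adjusted p = 0.647), and the 95% interval of the log2 fold change ran from -0.43 to 0.22. In 9 of the 10 genes, all but NEK2, every siNFKB2 library was below every siNS library, as in 18.6% of all genes tested.

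**Figure D2:**
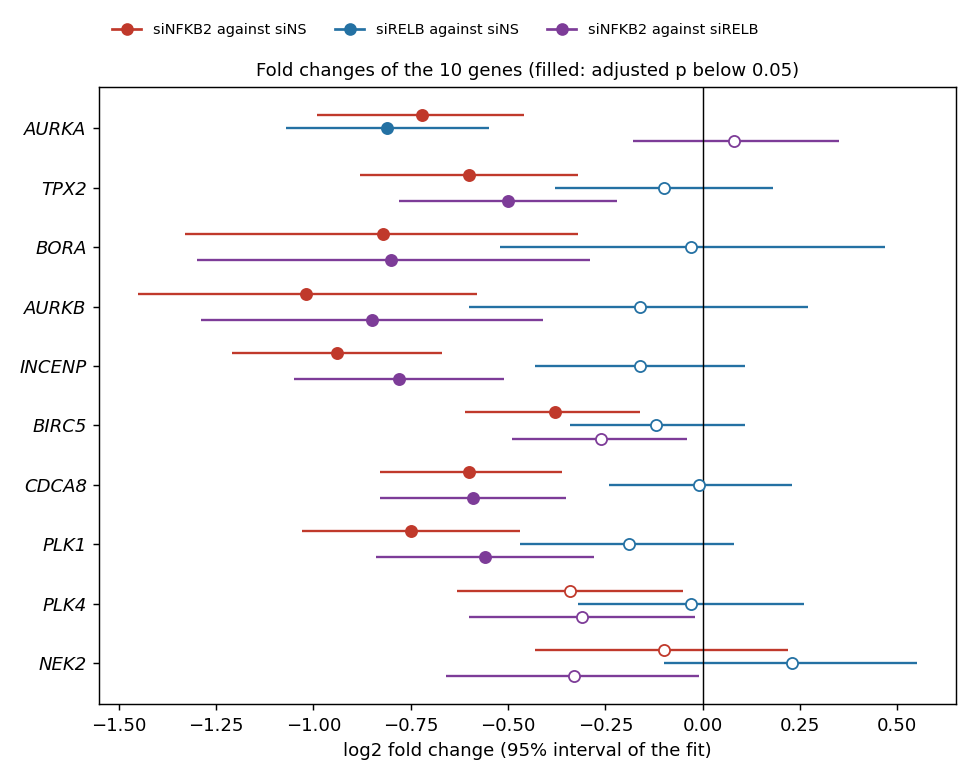
Log2 fold change of each gene (horizontal axis) in the 3 comparisons, with the 95% interval of the fit as a line. Filled points have an adjusted p below 0.05, which holds for 8 genes in siNFKB2 against siNS, for AURKA in siRELB against siNS, and for 6 genes in siNFKB2 against siRELB.

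The siNFKB2 libraries differed in the size of the fall. Relative to the siNS mean, the median of the 10 genes was -0.40 in replicate 1, -0.77 in replicate 2 and -0.80 in replicate 3 on the log2 scale. Replicate 1 had the least NFKB2 left, at 4.86% of the siNS mean, and replicate 3 the most, at 44.8%. Within each replicate number, siNFKB2 minus siNS, the median of the 10 genes was -0.48, -0.74 and -0.78 in replicates 1, 2 and 3. For AURKB these differences were -0.69, -1.38 and -0.88. The median of 8 proliferation markers was -0.52, -0.86 and -1.17 in these libraries, and mitochondrial rRNA was 0.519%, 1.01% and 2.68% of counts. With the mitochondrial rRNA share as a covariate, 8 of the 10 genes were called lower and the median of the 10 was -0.60 on the log2 scale. That fit called 5988 of 14815 genes either way, against 3869 without the covariate. The part of the proliferation markers in these falls was not tested.

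**Figure D3:**
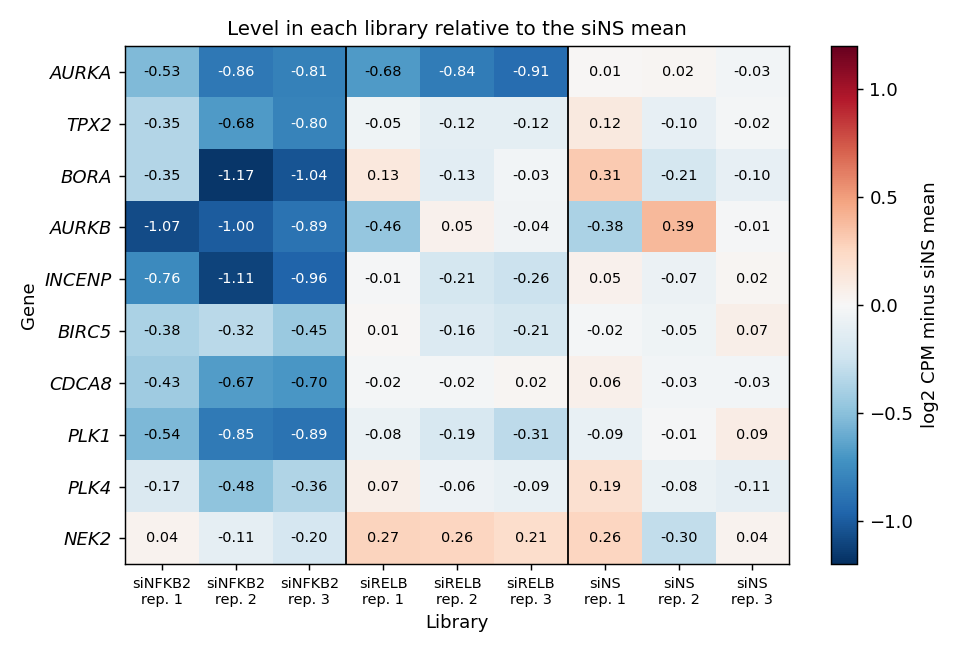
Log2 CPM of each gene in each library minus the siNS mean of that gene (colour and printed value). In siNFKB2 replicates 2 and 3 all 10 genes are below the siNS mean, and in siRELB the AURKA row stands at -0.68 to -0.91 while the other 9 rows lie between -0.46 and 0.27.

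The siRELB libraries set against siNS ask the same of RELB depletion. AURKA fell, and none of the other 9 genes was called by edgeR or by DESeq2 or had an unadjusted p below 0.05. Among all genes 2.02% were called in siRELB against siNS, 0.81% lower and 1.21% higher. AURKA had 139, 124 and 119 CPM in siRELB, against 224, 226 and 219 CPM in siNS. All siRELB libraries were far below the siNS libraries, a lack of overlap that 10.2% of all genes shared in this direction, with a mean of 127 ± 10.6 CPM in siRELB and 223 ± 3.8 CPM in siNS (SD, n = 3 each). The log2 fold change was -0.81 (SE 0.12, adjusted p = 0.0111), and by unadjusted p AURKA ranked 50 of 14815 genes. The call was lost without siRELB replicate 2 (adjusted p = 0.0861), siRELB replicate 3 (0.0862) or siNS replicate 3 (0.0687). The log2 fold change stayed between -0.88 and -0.76 over 19 alternatives, and with DESeq2 the adjusted p was 5.17e-08.

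The genes that work with Aurora A were near their siNS level in siRELB. TPX2 had 476, 452 and 453 CPM in siRELB, against 534, 461 and 487 CPM in siNS (log2 -0.10, 95% interval -0.38 to 0.18, adjusted p = 0.733). BORA had 20.1, 16.8 and 17.9 CPM in siRELB, against 22.8, 15.9 and 17.1 CPM in siNS (log2 -0.03, 95% interval -0.52 to 0.47, adjusted p = 0.965). Both pairs of groups overlapped. AURKB had 54.9, 78.3 and 73.6 CPM in siRELB, against 58.1, 98.5 and 74.9 CPM in siNS, with replicate 1 the lowest library in each group (log2 -0.16, 95% interval -0.60 to 0.27, adjusted p = 0.723). PLK1 had 147, 135 and 125 CPM in siRELB, against 146, 154 and 165 CPM in siNS (log2 -0.19, 95% interval -0.47 to 0.08, adjusted p = 0.476). Without the 3 libraries numbered 1 PLK1 was called, at a log2 fold change of -0.29 (adjusted p = 0.0449). Calls rose over the whole table too, to 3390 genes in that fit from 299 with all 9 libraries. The log2 fold changes of INCENP, BIRC5, CDCA8 and PLK4 were -0.16, -0.12, -0.01 and -0.03 (adjusted p = 0.555 to 0.978). INCENP had 126, 110 and 106 CPM in siRELB, and its lowest siNS library had 121 CPM. BIRC5 had 225, 201 and 193 CPM in siRELB, and its lowest siNS library had 217 CPM. Of the 10 genes, AURKA included, 2, 5 and 5 lay below their lowest siNS library in siRELB replicates 1, 2 and 3. No share over all genes was taken for these counts. NEK2 had 61.5, 61.0 and 59.1 CPM in siRELB, against 61.2, 41.3 and 52.5 CPM in siNS. The siRELB values were close together near the top of the siNS range (log2 0.23, adjusted p = 0.468). The median log2 fold change of the 10 genes was -0.11, and that of all genes tested was -0.02.

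AURKA was thus called lower in both knockdowns. Both comparisons use the same siNS libraries, so their results are not separate, and 0.25% of all genes tested were called lower in both. AURKA has a processed copy in the tables, AURKAP1, named after its values were seen, whose reads can be confused with those of AURKA. AURKAP1 averaged 6.65 ± 1.63 CPM in siNFKB2, 3.66 ± 0.642 CPM in siRELB and 2.35 ± 0.411 CPM in siNS. It was called higher in siNFKB2 than in siNS (log2 1.50, adjusted p = 0.00202) and was not called in siRELB (log2 0.64, adjusted p = 0.236). All of its means are small beside those of AURKA, which were 135, 127 and 223 CPM in the same order.

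The direct comparison of siNFKB2 with siRELB tests whether the effects of the knockdowns differ, since siNS cancels out of it. INCENP, CDCA8, PLK1, AURKB, TPX2 and BORA were lower in siNFKB2, which is 6 of the 10 genes, and no gene was higher. Among all genes 26.6% were called between siNFKB2 and siRELB, 14.3% lower and 12.2% higher. INCENP averaged 66.3 ± 8.15 CPM in siNFKB2 and 114 ± 10.6 CPM in siRELB (log2 -0.78, SE 0.12, adjusted p = 0.00158). CDCA8 averaged 88.9 ± 9.35 CPM in siNFKB2 and 134 ± 2.09 CPM in siRELB (log2 -0.59, SE 0.11, adjusted p = 0.00323). AURKB averaged 38.2 ± 2.38 CPM in siNFKB2 and 68.9 ± 12.4 CPM in siRELB (log2 -0.85, SE 0.20, adjusted p = 0.0106). The libraries of the groups did not overlap for any of these. The remaining calls were PLK1 (log2 -0.56, adjusted p = 0.00915), TPX2 (log2 -0.50, adjusted p = 0.0163) and BORA (log2 -0.80, adjusted p = 0.0262).

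For AURKA the knockdowns were close to each other. Its log2 difference, siNFKB2 over siRELB, was 0.08 (SE 0.12, adjusted p = 0.634), with a 95% interval from -0.18 to 0.35, and the libraries overlapped. BIRC5 (log2 -0.26, adjusted p = 0.0808), PLK4 (log2 -0.31, adjusted p = 0.11) and NEK2 (log2 -0.33, adjusted p = 0.12) did not overlap between the groups but missed the threshold. With the replicate number as a block these 3 were called lower in siNFKB2, at adjusted p = 0.0453, 0.0243 and 0.0406, which makes 9 of the 10 genes. Calls rose over the whole table too, to 6054 of 14815 genes either way with the block from 3934 without it. The groups did not overlap in 9 of the 10 genes, all lower in siNFKB2, as in 23.6% of all genes tested. The TPX2 and BORA calls were each lost when any 1 of siNFKB2 replicates 2 and 3 or the 3 siRELB libraries was left out. Their adjusted p then ran from 0.0515 to 0.0753 for TPX2 and from 0.0557 to 0.12 for BORA.

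Ratios between partner transcripts were taken within each library, which removes any shared scaling. The log2 ratio of AURKA to TPX2 was -1.32, -1.32 and -1.16 in siNFKB2, -1.77, -1.86 and -1.93 in siRELB and -1.25, -1.03 and -1.15 in siNS. The siRELB values were below all others, by 0.71 relative to siNS on average. The log2 ratio of AURKA to BORA was 3.43, 3.91 and 3.83 in siNFKB2, 2.79, 2.89 and 2.72 in siRELB and 3.30, 3.83 and 3.68 in siNS. It was also lowest in the siRELB libraries, but both ratios contain AURKA and are not separate results. Ratios to BORA are uncertain too, because of its overlap with DIS3. The log2 ratio of BIRC5 to INCENP was 1.20, 1.61 and 1.33 in siNFKB2, 0.84, 0.87 and 0.86 in siRELB and 0.75, 0.84 and 0.87 in siNS. Here the siNFKB2 libraries stood apart, at 0.56 above siNS on average. The log2 ratio of CDCA8 to INCENP averaged 0.42 ± 0.0892 in siNFKB2, 0.23 ± 0.148 in siRELB and 0.08 ± 0.0482 in siNS (SD, n = 3 each). That of AURKB to INCENP averaged -0.79 ± 0.233 in siNFKB2, -0.74 ± 0.4 in siRELB and -0.75 ± 0.443 in siNS, with wide overlap between the groups. That of PLK1 to BORA averaged 3.17 ± 0.253, 2.89 ± 0.109 and 3.08 ± 0.345 in siNFKB2, siRELB and siNS. In 18 two-sided exact permutation tests (6 ratios in 3 comparisons) the smallest p that 3 against 3 libraries allow is 0.1, reached where groups did not overlap, and none could pass the threshold (smallest adjusted p = 0.257).

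**Figure D4:**
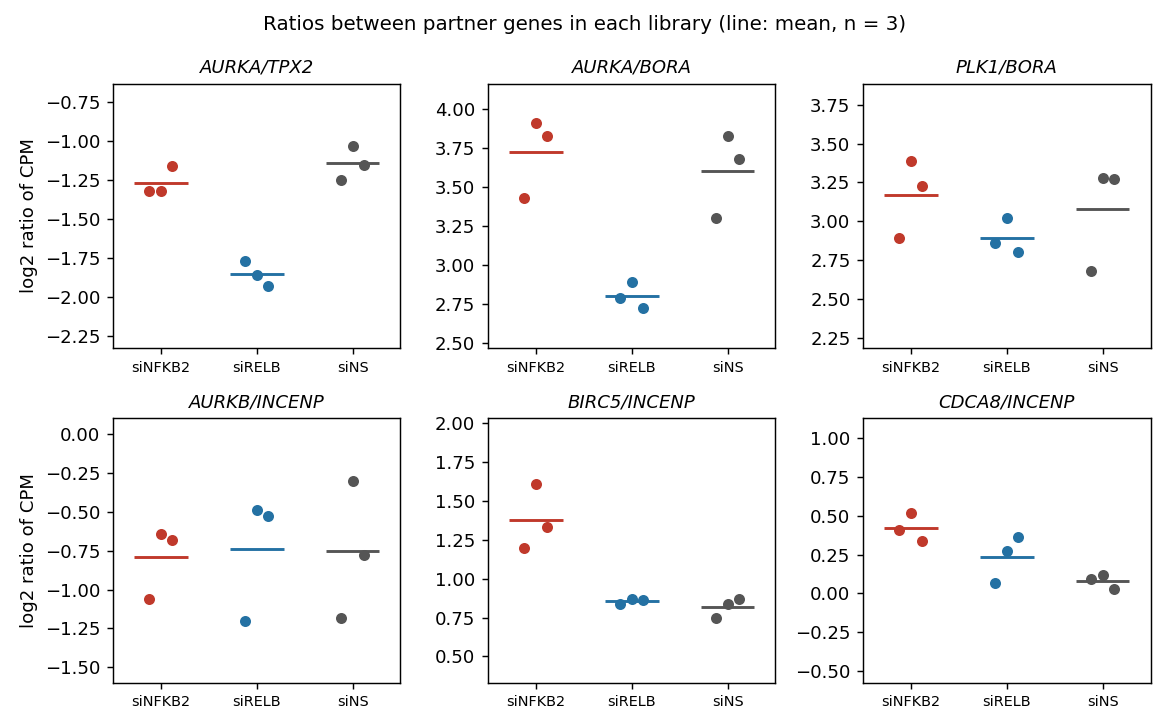
Log2 ratio of CPM between partner genes (vertical axis) in each library, by group, with the mean as a line (n = 3). Every panel spans the same log2 range. AURKA to TPX2 and AURKA to BORA, which share AURKA, are lowest in siRELB, and BIRC5 to INCENP is highest in siNFKB2. BORA counts are uncertain.

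Of 100 further genes of the same pathways on 9 lists, 97 were tested, and 47 were lower and 6 higher in siNFKB2 than in siNS. Over all genes tested 13.5% were lower and 12.6% higher, and the counts of each list below stand beside these shares. Among 12 genes of mitotic entry, 9 fell and none rose (median log2 -0.66), among them CCNB2 (log2 -0.79, adjusted p = 0.000932) and CDK1 (log2 -0.83, adjusted p = 0.00199), the kinase whose activation starts mitosis. Its activating phosphatases CDC25B (log2 -0.78) and CDC25C (log2 -1.17) fell too. Of 12 other Polo kinases and PLK1 partners, 9 fell (median log2 -0.58), including CENPU (log2 -0.91), a centromere docking site of PLK1, the abscission scaffold CEP55 (adjusted p = 0.000842), GTSE1 (log2 -0.68) and the midzone bundler PRC1 (log2 -0.62). PLK3 was the 1 that rose (log2 0.75, adjusted p = 0.0441), named after its value was seen. Among 8 genes that recruit or work with the passenger complex, 6 fell and none rose (median log2 -0.61), such as the midzone kinesin KIF20A (log2 -1.03), the kinase BUB1 (log2 -0.64) and the cohesin protector SGO2 (log2 -0.60). AURKC, a close relative of AURKB known from germ cells, was at 0.789 ± 0.062 CPM in siNFKB2 and 1.64 ± 0.107 CPM in siNS (log2 -1.05, adjusted p = 0.0175).

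Among 8 partners and activators of Aurora A, 5 fell (median log2 -0.45), including HMMR (log2 -0.90), TACC3 (log2 -0.86), CKAP5 (log2 -0.71) and PPP6C (log2 -0.46). TACC3 and CKAP5 are a spindle protein phosphorylated by Aurora A and its partner, and PPP6C is the catalytic subunit of the phosphatase that opposes Aurora A on TPX2. PPP2R1A rose (log2 0.35, adjusted p = 0.0389), named after its value was seen. Of 11 genes of the ubiquitin ligases that degrade mitotic kinases, 3 fell and none rose, with a median of 0.08, which is not below that of all genes. These were CDC20 (log2 -1.50, adjusted p = 0.00029), UBE2C (log2 -1.03) and UBE2S (log2 -0.75), which encode the activator and the conjugating enzymes of the anaphase-promoting complex. FBXW11 was at a log2 fold change of 0.55 (adjusted p = 0.0812). Of 15 genes of G2/M transcription, 4 fell and none rose (median log2 -0.33), and these were MYBL2 (log2 -0.63), FOXM1 (log2 -0.67), RBL1 (log2 -0.94) and NFYB (log2 -0.53).

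The centriole and NEK lists had calls in both directions, in a comparison where 13.5% of all genes were lower and 12.6% higher. Of 10 genes of centriole duplication, the process that PLK4 starts, 3 fell and 2 rose (median log2 -0.18), counts too small to set this list apart from all genes. CEP152 (log2 -0.58), which recruits PLK4, CEP295 (log2 -0.64) and CCP110 (log2 -1.18) fell, whereas CETN2 (log2 0.34) rose, as did CEP135 (log2 0.51), named after its value was seen. Of 13 other NEK kinases and linker genes, 2 fell and 2 rose (median log2 -0.13), near the shares over all genes, so these counts show nothing about the list. NEK11 averaged 11.4 ± 0.741 CPM in siNFKB2 and 5.11 ± 0.335 CPM in siNS (log2 1.16, adjusted p = 0.000595), and NEK1 also rose (log2 0.57). CEP250 (log2 -0.75), a linker protein that NEK2 phosphorylates, and CEP68 (log2 -0.40) fell. Of 8 proliferation markers, 6 fell and none rose (median log2 -0.74), including PCNA (log2 -1.09), MCM6 (log2 -1.58), TYMS (log2 -0.84) and MCM2 (log2 -1.10).

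In siRELB none of the 97 further genes was called by edgeR, while 9 were lower and 2 higher at an unadjusted p below 0.05 and 7 were called lower by DESeq2. With 2.02% of all genes called by edgeR in this comparison, few calls would be found among 97 genes in any case. DESeq2 called 865 of 14815 genes either way, and the counts at an unadjusted p stand without a share over all genes. No share by direction over all genes was taken for DESeq2 either. These counts therefore cannot say whether the 97 genes stand apart from all genes. The median log2 fold change of the lists ran from -0.20 for the ubiquitin ligases to 0.11 for the Aurora A partners. CCP110, low in siNFKB2, averaged 23.1 ± 10.3 CPM in siRELB and 49.9 ± 13.1 CPM in siNS (log2 -1.11, adjusted p = 0.13). HMMR was at 0.30 (adjusted p = 0.425) and TACC3 at -0.24 (adjusted p = 0.542) in siRELB relative to siNS. Between siNFKB2 and siRELB 40 of the 97 genes were lower in siNFKB2 and 4 higher, against 14.3% and 12.2% of all genes. By adjusted p the first of the named genes were CDC20 (log2 -1.30, adjusted p = 0.000486) and PCNA (log2 -0.94, adjusted p = 0.000508).

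**Figure D5:**
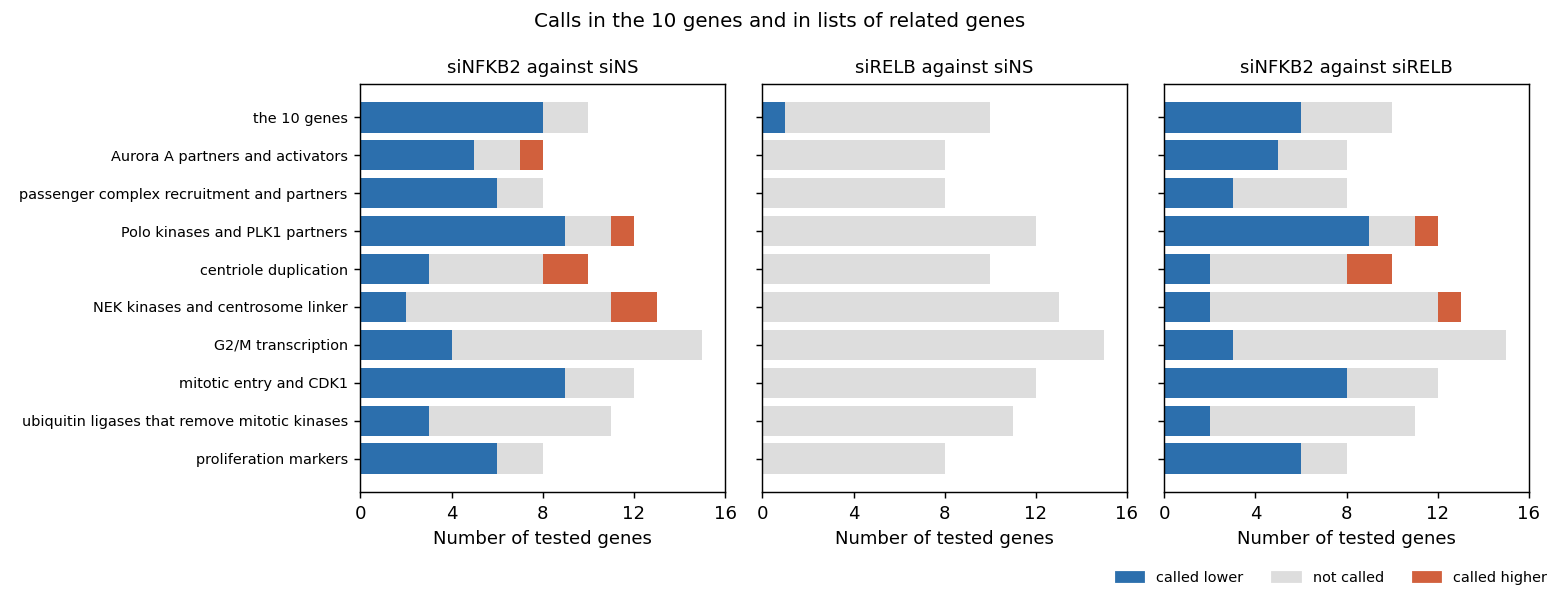
Number of tested genes (horizontal axis) called lower, not called and called higher among the 10 genes and on the 9 lists of related genes, in the 3 comparisons. In siNFKB2 against siNS the lower calls are 8 of 10 genes and 9 of 12 for mitotic entry, and in siRELB against siNS the single call is AURKA.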

How the data were processed

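Each library has 1 deposited file of raw counts, whole numbers by gene symbol and without normalization. The submitters' processing notes name Trimmomatic 0.38, STAR 2.7.1a, Subread 1.6.4 and GRCh38.p13. How each was used, which annotation served and whether strand was counted is not stated there.

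In edgeR 4.0.16 (R 4.3.3), filterByExpr retained 14815 genes and TMM set the library scaling. Entries with a suffix for a further placement (5005, at most 0.0369% of a library's counts) were kept apart. All 9 libraries entered 1 fit with a mean per group, and contrasts used the quasi-likelihood test of edgeR, Benjamini-Hochberg adjusted across all genes and called below 0.05. Common dispersion gave a biological variation of 0.184, with 4.35 prior degrees of freedom. SEs were obtained as the size of the log2 fold change over the root of F. Separate cultures are not stated, so p-values cover only library-to-library spread, possibly technical. Intervals and medians come from this fit. The analysis was tested on simulated data without any replicate effect, which does not cover the pairing described below.

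The replicate numbers of the labels were checked for pairing over 10615 genes averaging 5 CPM or more. Deviations from the group means correlated at 0.17 to 0.74 in the 9 same-numbered pairs of libraries, all over 0.1, so the numbers were taken to pair the samples, from the data and not from the labels. The fit with a replicate block was an alternative, so p-values and calls in the text ignore this pairing unless the block is named. With the block more genes were called, 5944, 1570 and 6054 in the 3 comparisons against 3869, 299 and 3934 without it. Within a group, library pairs differed by a chi-square per degree of freedom of 3.27 to 81.3, so all 9 were counted as samples.

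The 10 genes and the lists were chosen with earlier results of these data known. All 10 genes, and up to 4 genes of each list with the smallest unadjusted p in siNFKB2 against siNS, are named. Other names are said to be chosen after their values were seen. A marker of the blood list is not reported here. Coordinates, exon lengths and overlaps are from GENCODE 29, and the counting may have used another annotation. The alternatives were DESeq2 1.42.0, 2 other scalings, 2 other filters, the block, the 6 libraries compared alone, each library left out, the libraries numbered 1 left out, placements summed and mitochondrial rRNA as a covariate.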

Additional observations from a re-analysis of the deposited data

Results flagged for a closer look

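The effects of the knockdowns against the same siNS libraries differed for 6 genes by the test of the difference itself, siNFKB2 minus siRELB. The log2 differences were -0.78 for INCENP, -0.59 for CDCA8, -0.56 for PLK1, -0.85 for AURKB, -0.50 for TPX2 and -0.80 for BORA, with adjusted p = 0.00158, 0.00323, 0.00915, 0.0106, 0.0163 and 0.0262 by edgeR's quasi-likelihood test. All 3 siNFKB2 libraries were below all 3 siRELB libraries for each of them, as in 23.6% of all genes tested. Of all genes tested 26.6% were called between siNFKB2 and siRELB, 14.3% lower and 12.2% higher. The differences of TPX2 and BORA lost their calls when 1 of several libraries was left out, and BORA counts are uncertain because of the overlap with DIS3. PLK1 also overlaps genes on the opposite strand, over a smaller part of its exons.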

How the results depend on the processing

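The log2 fold changes of the 10 genes were recomputed under 19 alternatives, 190 values per comparison, and no called value changed sign. In siNFKB2 against siNS 179 values kept their side of the threshold, 8 lost the call (BIRC5 and BORA) and 3 gained it (PLK4). In siRELB against siNS these counts were 186, 3 (AURKA) and 1 (PLK1), and in siNFKB2 against siRELB 171, 10 (TPX2 and BORA) and 9 (BIRC5, PLK4 and NEK2). Some values that were not called did change sign. Without siNS replicate 1, NEK2 went from -0.10 to 0.03 in siNFKB2 and BORA from -0.03 to 0.15 in siRELB, both against siNS. Without siNFKB2 replicate 1, AURKA went from 0.08 to -0.03 in siNFKB2 against siRELB. With 1 library left out, the 10 genes gave 6 to 9 calls in siNFKB2 against siNS, 0 to 1 in siRELB against siNS and 4 to 6 in siNFKB2 against siRELB. Their medians then ran from -0.79 to -0.59, from -0.15 to -0.08 and from -0.66 to -0.45. Calls over all genes, 3869, 299 and 3934 in the 3 comparisons, ran from 2220 to 4895, from 15 to 1819 and from 2188 to 4917. The lowest counts came without siNFKB2 replicate 2 in both comparisons with siNFKB2 and without siRELB replicate 2 in siRELB against siNS, where the highest came without siNS replicate 1. With the replicate block they were 5944, 1570 and 6054, and without the 3 libraries numbered 1 they were 6711, 3390 and 6600, with 2 of the 10 genes (AURKA and PLK1) called in siRELB. With the mitochondrial covariate there were 5988 calls in siNFKB2 and 1326 in siRELB against siNS. In siRELB against siNS DESeq2 gave 865 calls and the 6 libraries alone 129. Beyond PLK4, BIRC5 and NEK2 as given above, the block changed no call of the 10 genes. Each leave-out fit has fewer samples, and otherwise the cause was not tested. Depth limits BORA most, at 135 to 434 reads per library.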
